A study of Mus musculus with 6 samples.

Results

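Of 21288 distinct exons and introns that reached a mean of 1 RPM (reads scaled to the total of the library) over 4 crosslinked libraries, 260 (1.22%) held a smaller share of the reads in each of 3 Gtsf1 pull-downs than in the matching input. They were chosen by their measured values: the ratio log2(pull-down RPM + 1) minus log2(input RPM + 1) was -0.6 or less in both crosslinked pairs and in the non-crosslinked pair, and features with identical counts were counted once. The 260 carried 349 feature names and comprised 207 exons and 53 introns of 230 genes. Because the ratios made the choice, they are given below as a description of these features and test nothing.

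The study was an eCLIP experiment, in which ultraviolet light joins RNA to the proteins that touch it before a protein is purified and the RNA attached to it is sequenced. All 6 libraries came from P19 cells, a mouse embryonal carcinoma line, that had been transiently transfected 48 hours earlier with mouse Gtsf1 (Asterix) carrying a C-terminal TEV-Strep tag, expressed in the pEF vector from the EF-1alpha promoter, so controls and pull-downs alike contained the overexpressed protein. Crosslinked cells (254 nm) gave 2 pull-downs on MagStrep beads and 2 inputs, and cells that were not crosslinked gave 1 of each. No library of cells without the tagged protein was analysed here, and the labels do not say whether the numbered libraries came from separate cultures, so the p-values below measure only the spread between these libraries.

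Library totals ran from 13168593 to 18418166 reads, and 1 read was worth 0.0543 to 0.0759 RPM. Of 11 embryonal carcinoma markers, 8 were above 1 RPM in the crosslinked inputs on average, led by Pou5f1 at 30.4 to 35.4 RPM over the 3 inputs, while Dppa5a, Nanog and Zfp42 were under 1 RPM. Endoderm, mesoderm and fibroblast markers each summed to under 1 RPM in every input, and 4 neural markers to 5.37 to 7.75 RPM. RPM values are shares of a library, so a smaller share of one RNA and a larger share of the others cannot be told apart, nor, in a bulk lysate, can fewer cells with an RNA and less of it per cell. In all 21288 exons and introns the median ratio was itself below 0, at -0.20 and -0.19 in crosslinked pairs 1 and 2 and -0.44 in the non-crosslinked pair.

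Gtsf1 is a small zinc-finger protein that acts with Piwi proteins in transposon silencing in the germ line. Many small nucleolar RNAs (snoRNAs) of mammals are cut out of introns of genes for ribosomal proteins and translation factors. C/D box snoRNAs guide 2′-O-methylation of ribosomal RNA, H/ACA box snoRNAs guide its pseudouridylation, and the related scaRNAs act in Cajal bodies on spliceosomal RNAs. Symbols that start with Snord are given to C/D and those with Snora to H/ACA snoRNAs. The last exon of an mRNA usually carries most of its 3′ untranslated region, where microRNAs and many RNA-binding proteins act.

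The hosted RNAs are where sequence can be shown, because 2 genes with a member intron have in their span a scaRNA that overlaps an annotated microRNA hairpin. The hairpins below are from RefSeq (GRCm38.p6), 5′ to 3′, with the last ACA of each in capitals, the triplet that gives H/ACA RNAs their name and stands just before their 3′ end. Mir1843b (chr1:159340358-159340423, plus strand) lay with all 66 of its bases inside Scarna3a, in the span of Cop1, and Mir1843a (chr12:80391613-80391677, minus strand) shared 64 bases with Scarna3b, in the span of Dcaf5. Mir3084-2 (chr19:60774329-60774397, minus strand) covered all 56 annotated bases of Snora19 in the span of Eif3a, whose exon 22 was a member.
Mir1843b: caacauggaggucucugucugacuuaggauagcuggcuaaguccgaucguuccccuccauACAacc
Mir1843a: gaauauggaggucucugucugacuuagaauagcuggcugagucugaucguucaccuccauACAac
Mir3084-2: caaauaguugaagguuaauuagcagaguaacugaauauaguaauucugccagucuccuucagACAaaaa
The ACA was followed by 3, 2 and 4 bases of the hairpin. Compared base by base from the 5′ end, Mir1843a and Mir1843b matched at 59 of 65 positions (90.8%). The mature 5p forms, with seed bases 2 to 8 in capitals, did not share a seed, because their annotated starts were offset by 1 base.
mmu-miR-1843b-5p: aUGGAGGUcucugucugacuu
mmu-miR-1843a-5p: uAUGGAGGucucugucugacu

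Both scaRNAs and Snora19, like the member features of their genes, were lower in all 3 pull-downs. Intron 18 of Cop1, which encodes an E3 ubiquitin ligase, measured 15.1 RPM in the input without crosslinking and 21.2 and 18.8 RPM in the crosslinked inputs, against 3.65, 8.56 and 7.66 RPM in the pull-downs in the same order, which is kept below. Scarna3a itself measured 8.9, 7.33 and 8.42 RPM in these inputs and 1.97, 0.931 and 2.4 RPM in the pull-downs. The Mir1843b hairpin measured 0.565, 2.81 and 2.93 RPM in the inputs against 0.152, 0.062 and 0.126 RPM in the pull-downs. The hairpin's pull-down values all lay under the 3-read floor of their libraries (0.186 to 0.228 RPM), and no pull-down reached an input in any of the 3 features. Intron 5 of Dcaf5, a substrate adaptor of a ubiquitin ligase, measured 5.16, 9.07 and 7.85 RPM in the inputs and 2.43, 3.5 and 3.78 RPM in the pull-downs. Scarna3b measured 3.18, 2.86 and 2.66 RPM against 0.987, 0.434 and 0.442 RPM. Exon 22 of Eif3a, a scaffold subunit of the initiation factor eIF3, had 7.53, 9.51 and 7.9 RPM in the inputs and 2.51, 4.13 and 3.98 RPM in the pull-downs, and Snora19 had 20.2, 35.4 and 31.2 RPM against 2.47, 3.66 and 10.4 RPM. Its overlapping hairpin Mir3084-2 measured 0.0707, 0.63 and 0.462 RPM against 0.152, 0.217 and 0.316 RPM. It was lower in both crosslinked pull-downs, while both non-crosslinked values lay under the 3-read floors of 0.212 and 0.228 RPM and have no order. Of 21 genes that RefSeq classes as microRNAs in the spans of the 230 genes, 10 had a feature of their own with reads. For Gm24148 and Gm25500 that feature was a snoRNA. Mir6920, Mir500, Mir501, Mir532 and Mir7026 had 0 RPM in every input and at most 0.0759 RPM, about 1 read, in a pull-down. A microRNA gene lay in the span of 17 of 220 member genes found in RefSeq (7.73%), against 382 of 6726 of all genes at this level (5.68%).

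The 260 features divided into 5 kinds, a grouping made after their values were seen. There were 6 mitochondrial mRNAs, 53 exons and introns of 42 genes with a snoRNA or scaRNA in their RefSeq span, 153 last listed exons of 143 other genes, 16 other exons and 32 other introns. These were 46.2% of the 13 mitochondrial mRNA features at this level, 4% of 1325 features of such host genes, 3.41% of 4486 last exons of other genes, 0.556% of 2879 other exons and 0.254% of 12585 other introns. Over all members the median ratio was -0.83 and -0.75 in crosslinked pairs 1 and 2 and -1.08 in the non-crosslinked pair. In 28 members it was -1 or less in all 3 pairs and in 7 it was -2 or less. The non-crosslinked ratio lay below both crosslinked ratios in 173 members and above both in 41. That count was not made over all exons and introns, where the median was also lowest in the non-crosslinked pair (-0.44 against -0.20 and -0.19). Of all distinct exons and introns, 31.6% were at -0.6 or less in the non-crosslinked pair, against 6.89% and 4.96% in pairs 1 and 2. The count used the RPM ratios that made the choice and was not repeated with another scaling. All 3 pull-downs lay below all 3 inputs in 234 of 260, against 11.3% of all distinct exons and introns, a property the choice largely fixes.

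**Figure D1:**
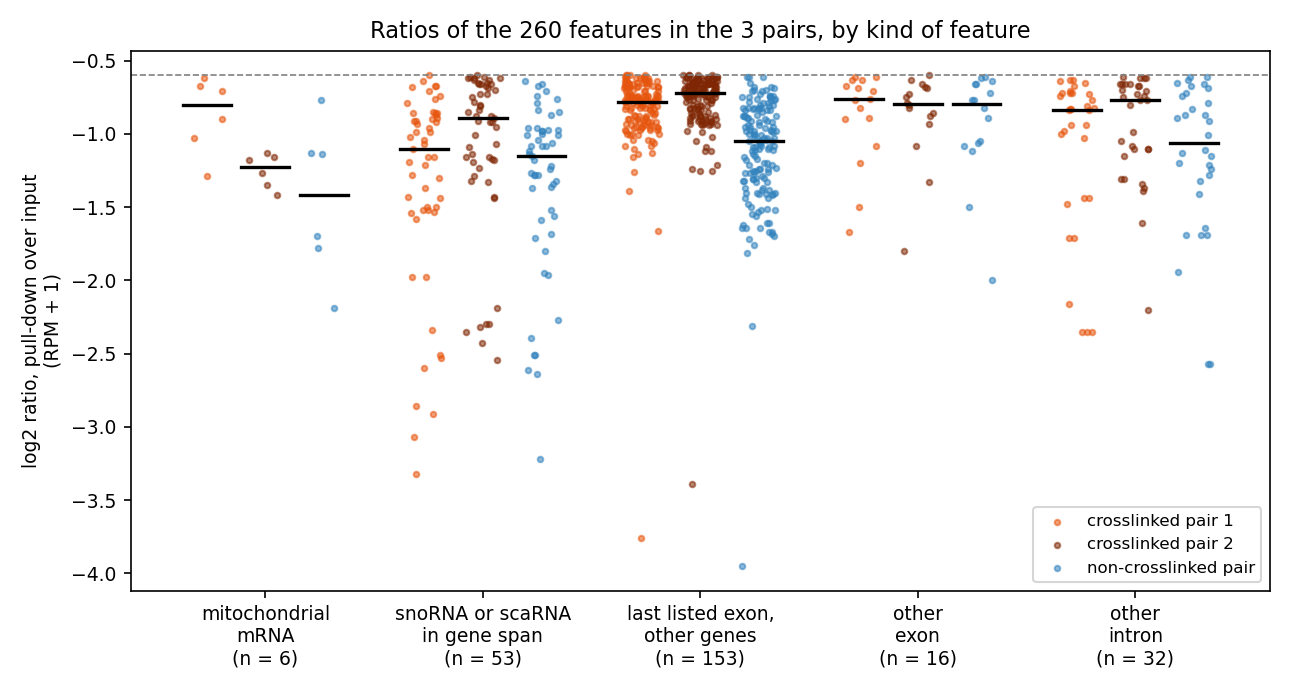
Log2 ratio of pull-down over input (RPM + 1) of each of the 260 features in crosslinked pairs 1 and 2 and the non-crosslinked pair, by kind of feature; black bars are medians and the dashed line is the -0.6 limit of the choice. Of the 7 features at -2 or less in all 3 pairs, 6 were in genes with a snoRNA or scaRNA in their span, and the last exons lay close to the limit in the crosslinked pairs (medians -0.78 and -0.72).

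Genes with a snoRNA or scaRNA in their span supplied 6 of the 7 members at -2 or less in all 3 pairs. Of 220 member genes found in RefSeq, 42 (19.1%) had a snoRNA or scaRNA in their span, against 289 of 6726 genes (4.3%) with any exon or intron at 1 RPM. The share of member genes was 70.8% when members were chosen after TMM factors, 50% after centring on the median and 73.7% with a limit of -1, 9.24% with a pseudocount of 0.1 RPM, and 10.9% and 10.4% without replicate 1 and without replicate 2. A symbol starting with Snora occurred in 12 of the 220 (5.45%) against 25 of 6726 (0.372%), and a Snord symbol in 6 (2.73%) against 38 (0.565%). The median gene length was 40.9 kb in member genes and 40.3 kb in all, and the median number of features at the level tested was 4 and 2. The part of these in the shares was not tested.

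Among exons, the lowest value in this group belonged to exon 2 of a 2-exon transcript of Eif4a2 (chr16:23107468-23114132), an RNA helicase of translation initiation. It measured 178, 145 and 134 RPM in the non-crosslinked and crosslinked inputs and 27.7, 13.6 and 22.1 RPM in the corresponding pull-downs, ratios of -3.32, -2.54 and -2.64 in crosslinked pair 1, pair 2 and the non-crosslinked pair. The last exon of a 4-exon transcript of Eif5, the GTPase-activating protein of eIF2, measured 67.1, 38.7 and 39.4 RPM in the inputs and 10.9, 5.55 and 6.92 RPM in the pull-downs. Every input exceeded every pull-down several-fold in both genes. Exon 1 of a Rpl6 transcript, for a protein of the large ribosomal subunit, measured 62.3, 45.9 and 60.3 RPM in the inputs and 18.3, 7.26 and 12.4 RPM in the pull-downs. Exon 3 of a Tcp1 transcript, which encodes a chaperonin subunit, measured 17.2, 11.5 and 9.07 RPM against 2.77, 2.17 and 3.8 RPM. Exon 8 of Taf1d, which encodes a subunit of a polymerase I initiation factor and has 6 annotated snoRNAs in its span, measured 86.7, 78.3 and 86.9 RPM against 29.5, 25.6 and 34 RPM. The inputs and pull-downs of these 3 exons were also apart.

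Among introns, intron 1 of Rps16 (chr7:28350689-28352698), a gene of the small ribosomal subunit, had 17.9, 18.8 and 18 RPM in the inputs and 1.04, 1.37 and 2.53 RPM in the pull-downs, ratios of -3.07, -2.43 and -3.22. Intron 1 of Rpl23 (chr11:97777526-97782439), of the large subunit, had 22.3, 13.2 and 15.2 RPM against 2.8, 0.9 and 2.24 RPM. Intron 31 of Chd4, the ATPase of the NuRD chromatin remodelling complex, had 6.82, 9.73 and 7.82 RPM against 0.494, 0.481 and 0.79 RPM. In all 3 the pull-downs were under 3 RPM and every input was above them. Intron 5 of Ranbp1, a partner of the Ran GTPase, stood at 38.5 RPM in the non-crosslinked input and 15.1 and 14.4 RPM in the crosslinked ones, and at 9.23, 2.17 and 4.68 RPM in the pull-downs. Intron 1 of Tbrg4, an RNA-binding protein of mitochondria, stood at 4.47, 2.3 and 2.11 RPM against 0.704, 0.211 and 0.38 RPM. In these and in Rpl23, the non-crosslinked library was the highest of the inputs and of the pull-downs.

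**Figure D2:**
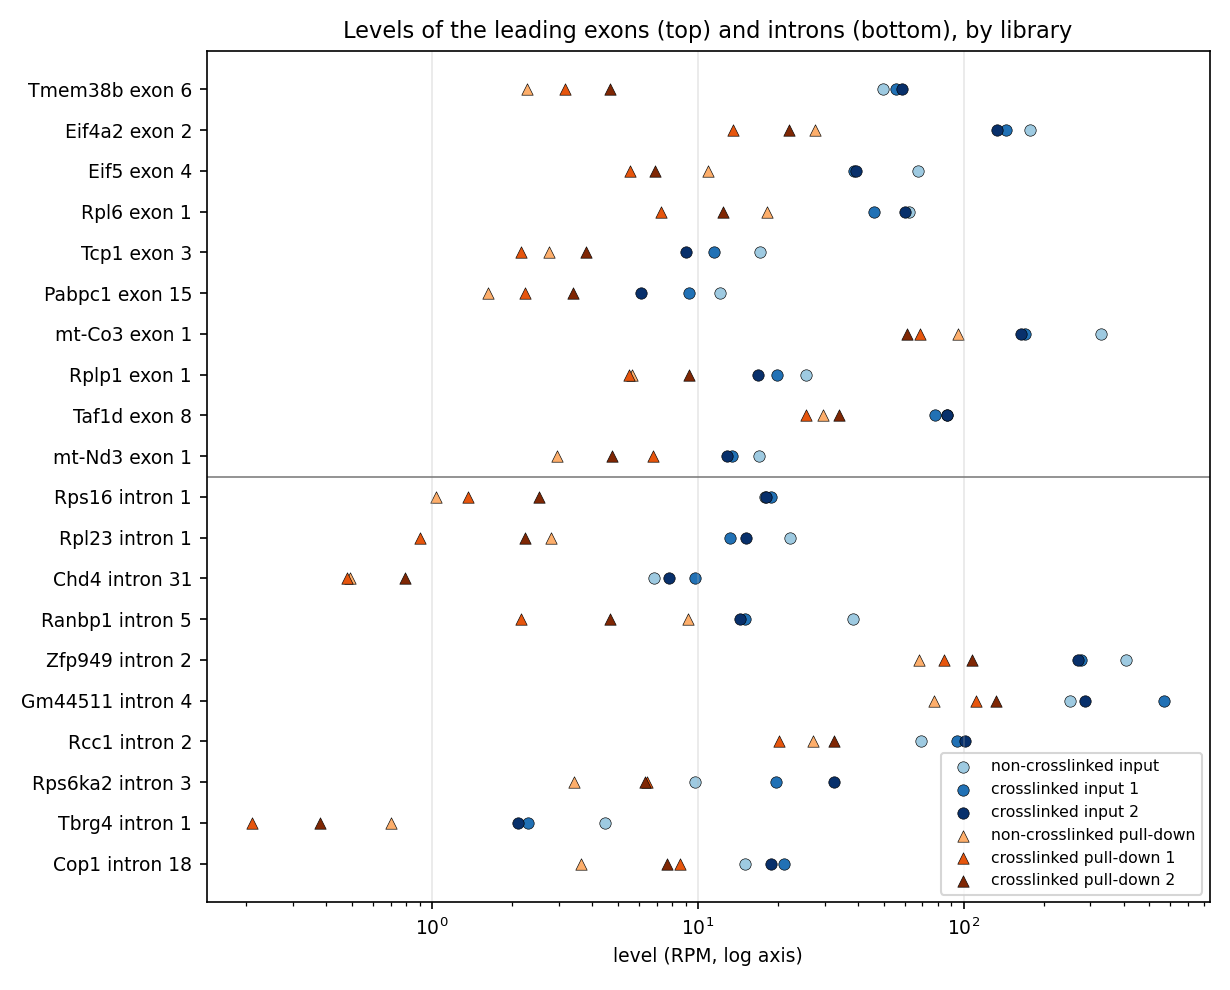
Level in RPM (log axis) in each of the 6 libraries of the 10 exons and 10 introns with the lowest mean ratio, 1 per gene; circles are inputs, triangles pull-downs. In all 20 features every pull-down lies left of every input, from Tmem38b exon 6 (2.28 to 4.68 against 49.8 to 58.7 RPM) to Cop1 intron 18 (3.65 to 8.56 against 15.1 to 21.2 RPM).

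The hosted RNAs have features of their own in the files, which the choice did not use directly, though they come from the same libraries and their reads may be fragments of the same transcripts. Counting RNAs that RefSeq also classes as snoRNA or scaRNA, 44 features in the spans of member genes reached 1 RPM. Of these, 30 (68.2%) were at -0.6 or less in all 3 pairs, against 101 of 380 (26.6%) of all snoRNA and scaRNA features. With a Snora symbol it was 12 of 13 (92.3%), against 34 of 41 (82.9%) for all Snora features. With a Snord symbol it was 0 of 7, against 1 of 94 (1.06%) for all Snord features. The totals for all features include those in member genes, and 24 of the 44 features had another symbol.

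Snora64, in the span of Rps2, measured 308, 312 and 347 RPM in the non-crosslinked and crosslinked inputs and 8.28, 10.3 and 32.9 RPM in the pull-downs, ratios of -4.79, -3.36 and -5.06 in pair 1, pair 2 and the non-crosslinked pair. Snora21, in the span of Rpl23, measured 50.1, 100 and 109 RPM against 3.8, 9.03 and 24 RPM. Counts of single features were often fractions of reads, but each annotation class summed to a whole number, and which class took a read that overlaps both an intron or exon and a snoRNA is not given in the sources used here. Whether the reads of the member introns and exons of these genes were reads of the small RNAs was not tested. Eif4a2 held RNAs of both families. Its Snora81 measured 239, 394 and 383 RPM in the inputs and 51.7, 135 and 213 RPM in the pull-downs, whereas its Snord2 measured 18.7, 22.2 and 25.5 RPM and 39.4, 36.7 and 65.5 RPM. Snord2 was higher and Snora81 lower in each pull-down than in its input, within one gene. In Snx5, a sorting nexin, the RNAs of the span also differed in direction, with the snoRNA Gm26165, of a family RefSeq's symbol does not give, at -2.77, -2.07 and -2.92 and Snord17 at 0.53, 0.49 and 0.60, beside a member intron at -0.79, -0.92 and -0.76. Of the Snord features in these spans, 4 of 7 were above 0 in all 3 pairs, a share near that of all Snord features (50 of 94). The others of the 7 were Snord110 in the span of Nop56, at -1.48, 0.31 and -0.96, Snord82 in that of Ncl, at -0.38, 0.51 and 0.12, and Snord71 in that of Ap1g1, at -0.04, 0.96 and 0.27. Snora75, in the span of Ncl, had -0.93, -0.38 and -0.35 and was the Snora feature that missed the limit. In Slc25a3, a mitochondrial phosphate carrier, the member intron 2 had ratios of -1.53, -1.43 and -0.98 while the snoRNA Gm24119 in the same span had 0.52, 0.68 and 0.50.

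**Figure D3:**
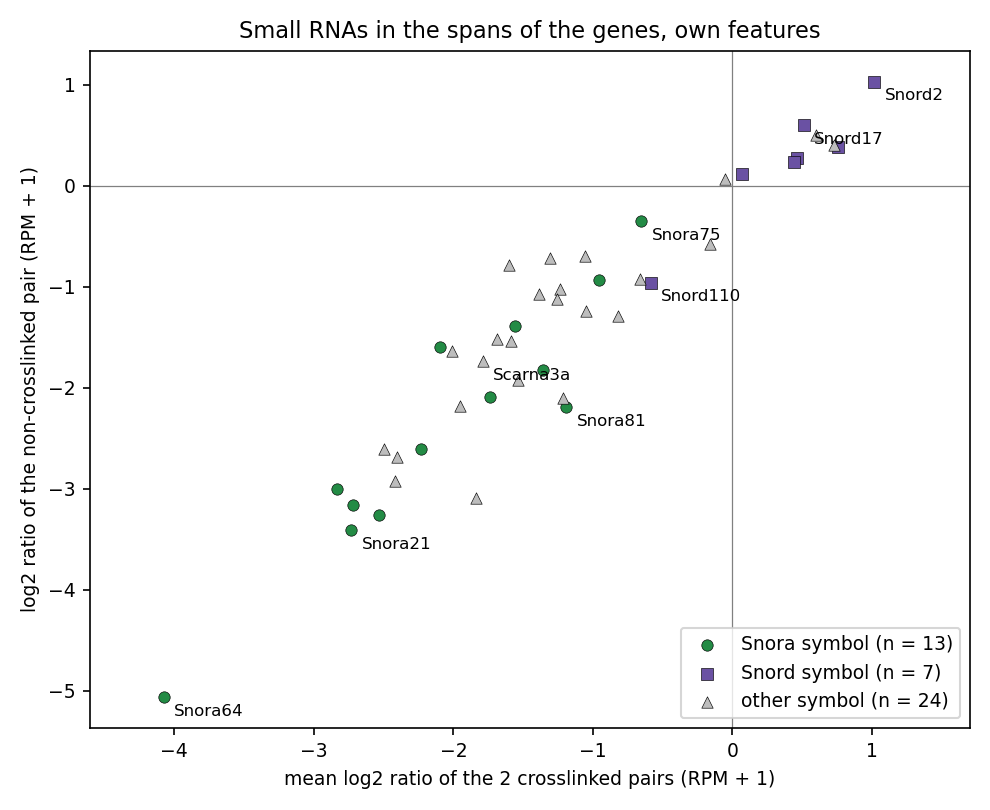
Mean log2 ratio of the crosslinked pairs against the ratio of the non-crosslinked pair (RPM + 1) for the 44 snoRNA and scaRNA features in the spans of member genes; green circles have a Snora symbol (n = 13), purple squares a Snord symbol (n = 7) and grey triangles another symbol (n = 24). All Snora points lie below 0 on both axes, with Snora64 the lowest, and 6 of the 7 Snord points lie above 0 on both, the exception being Snord110. Gm24148, a snoRNA feature in the span of Ncl that RefSeq classes as a microRNA, is not shown.

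The lists of genes drawn up for this study, with earlier results of these data known, gave these counts. Members were 13 of 134 distinct features (9.7%) of H/ACA host genes, 18 of 261 (6.9%) of the genes listed as C/D hosts, 15 of 244 (6.15%) of translation factor and chaperone genes and 14 of 347 (4.03%) of ribosomal protein genes, against 1.22% of all exons and introns. These lists share genes such as Ncl and Taf1d, and the C/D list holds Rpl10, Rpl12 and Tcp1, in whose spans the only RNAs with a family symbol were Snora70, Snora65 and Snora20, so its count is not one of C/D hosts alone. The H/ACA list holds Nop56, whose span had only Snord110 and Snord57 with a family symbol, and Ep400 and Taf1d, with none. Tpt1, with Snora31 in its span, is not on it, so that count is not a clean one of H/ACA hosts either. Ep400, a chromatin remodeller on the H/ACA list, had 2.66, 7.18 and 7.73 RPM in the inputs and 0.759, 1.08 and 2.56 RPM in the pull-downs at exon 1. Exon 3 of Rpl12, on the C/D list but with Snora65 in its span, had 33.7, 25.9 and 25.5 RPM against 12.9, 8.26 and 10.7 RPM. Of microRNA host genes 2 of 73 features were members, both in Pank3, and there were 0 members among 30 features of pluripotency genes, 7 of piRNA pathway genes and 67 of replication-dependent histone genes. The nuclear long noncoding RNAs listed had no exon or intron feature at this level.

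The lowest ratios of the 260 members were in a gene outside these lists. Exon 6 of Tmem38b (chr4:53825988-53862019), a cation channel of the endoplasmic reticulum, measured 49.8, 55.6 and 58.7 RPM in the inputs and 2.28, 3.16 and 4.68 RPM in the pull-downs, ratios of -3.76, -3.39 and -3.95. It is the last of 6 listed exons, and RefSeq places an rRNA gene, LOC115490001 (chr4:53860652-53860770), inside the span of Tmem38b. The introns of Tmem38b, summed, went from 1.08, 2.05 and 2.48 RPM in the inputs to 1.04, 3.1 and 3.24 RPM in the pull-downs, so the difference lay in the exon. Whether reads of the rRNA gene were counted in exon 6 was not tested.

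Last exons made up most of the list. Of 198 member exons from transcripts with several exons, 175 (88.4%) were the last listed, 6 the first and 17 internal, while among all 7394 such exons 4750 (64.2%) were last, 1283 first and 1361 internal. The last listed exon is the highest number that a transcript's exons and introns with reads in any of these libraries gave, not one taken from a gene annotation. The share of members was 90.2% on the plus strand (82 exons) and 90.8% on the minus strand (76 exons). Among all exons it was 73.3% on the plus (2833 exons) and 56.7% on the minus strand (3025 exons). Exons of genes without a matched strand were left out of this split. Whether the exon numbers follow transcription is not given in the sources used here. Members were 3.68% of all last exons and 0.87% of all others. By mean level of the crosslinked libraries, members were 22 of 2456 last exons and 1 of 1573 others under 2 RPM, 76 of 1686 and 9 of 822 from 2 to 5 RPM, and 77 of 608 and 13 of 249 from 5 RPM. The part of level and of the added 1 RPM in these shares was not tested.

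**Figure D4:**
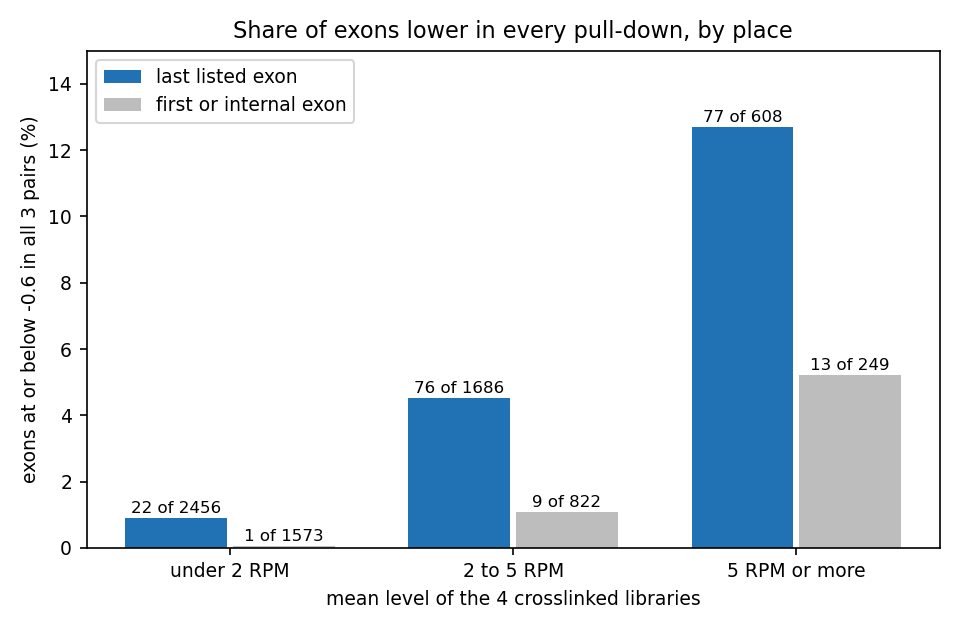
Percent of exons with a ratio of -0.6 or less in all 3 pairs, for last listed exons (blue) and first or internal exons (grey) of transcripts with several exons, by mean level of the 4 crosslinked libraries; numbers over the bars are members of all exons. At 5 RPM or more the share was 12.7% of last exons and 5.22% of the others.

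The following last exons were picked after their values were seen, as high and well-known examples. Exon 17 of Ddx3x, an RNA helicase (chrX:13280496-13293988), measured 33.9, 37 and 31.6 RPM in the inputs against 10.9, 21.3 and 16.4 RPM in the pull-downs, and exon 29 of Nedd4, a ubiquitin ligase, 41.7, 48.9 and 40.2 RPM against 16.2, 24.5 and 22.6 RPM. In both of these the pull-downs were all below the inputs and the non-crosslinked pull-down was the lowest. In the last-exon group as a whole the non-crosslinked ratio was below both crosslinked ones in 124 of 153 members, against 25 of 53 in the host-gene group. These counts were not made over all features or with TMM factors, and the difference was not tested. Over all 4486 last exons of other genes the medians were -0.36, -0.23 and -0.49 in pair 1, pair 2 and the non-crosslinked pair. Over all 1325 host-gene features they were -0.26, -0.20 and -0.42. Exon 7 of Pank3, a pantothenate kinase that hosts Mir103-1, measured 12.9, 15.5 and 13.3 RPM and 3.11, 7.38 and 7.52 RPM. Exon 15 of Pabpc1, the cytoplasmic poly(A)-binding protein, measured 12.1, 9.26 and 6.11 RPM against 1.63, 2.25 and 3.39 RPM. Exon 4 of Olfr1388, an olfactory receptor gene, was the highest of the group in the crosslinked inputs, at 96.1, 72.8 and 60.9 RPM against 50.9, 33.9 and 25.1 RPM. Of the 220 matched member genes 15 (6.82%) lay on the X chromosome, against 234 of 6726 (3.48%).

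The rest of each gene was measured by its other exons, introns and pre-mRNA feature. The other exons of the genes in the last-exon group, summed per gene, had median ratios of -0.31, -0.19 and -0.46 in pair 1, pair 2 and the non-crosslinked pair (126 genes with a value), close to -0.27, -0.13 and -0.34 over 5872 genes. Their introns, summed, had -0.23, -0.33 and -1.02 (133 genes), against -0.22, -0.23 and -0.67 over 6121 genes. In Ddx3x the other exons went from 10.5, 14.5 and 16.3 RPM in the inputs to 5.2, 12.2 and 11.4 RPM in the pull-downs. Its introns went from 15.5, 18.6 and 16.9 RPM to 10.5, 16.4 and 13.9 RPM, lowest in the non-crosslinked pull-down. Of 126 genes, 1 had its other exons at -0.6 or less in all 3 pairs (0.794%, against 0.341% of all genes), and 0 of 133 had its introns there (0.229% of all genes). In the host-gene group the other exons had medians of -0.29, -0.12 and -0.32 (41 genes). The pre-mRNA feature was at -0.6 or less in all 3 pairs in 8.89% of 90 genes of the last-exon group and 16.7% of 36 of the host-gene group, against 4.16% of 2138 genes. Its medians were -0.53, -0.50 and -0.41 in the last-exon group, -0.69, -0.56 and -0.29 in the host-gene group and -0.46, -0.39 and -0.26 over all genes. The choice placed one feature of each gene low, so a gap to the rest of the gene is partly built in.

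**Figure D5:**
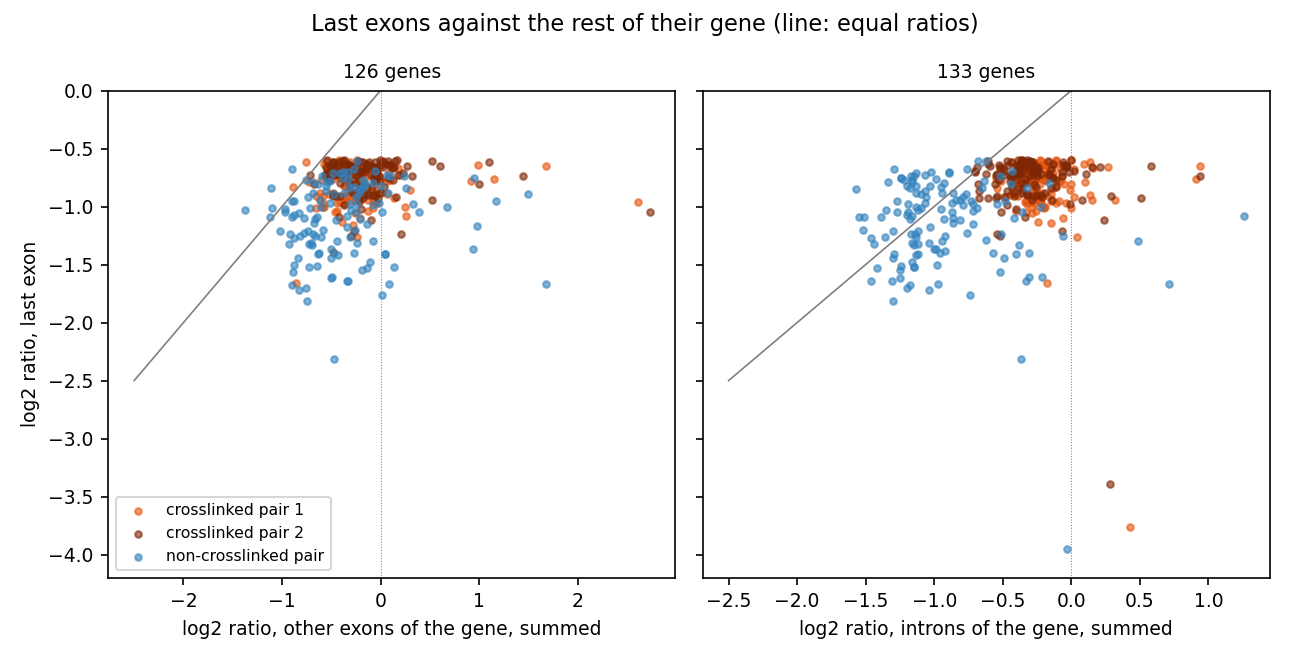
Log2 ratio (RPM + 1) of the last exon, against that of the other exons (left, 126 genes) and introns (right, 133 genes) of the same gene, summed, in each of the 3 pairs, which the colours mark; on the grey line both ratios are equal. In the crosslinked pairs most points lie below the line, and in the non-crosslinked pair the introns spread down to ratios like those of the exons (median -1.02).

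Of the 13 protein-coding genes of the mitochondrial genome, 6 met the rule: mt-Co1, mt-Co3, mt-Cytb, mt-Nd3, mt-Nd4l and mt-Nd5, which encode subunits of respiratory complexes I, III and IV. The highest, mt-Co1, measured 785, 479 and 468 RPM in the inputs and 241, 235 and 183 RPM in the pull-downs. For mt-Co3 it was 330, 170 and 165 RPM against 95.2, 68.8 and 61.2 RPM, and for mt-Nd3 17, 13.5 and 12.9 RPM against 2.96, 6.76 and 4.74 RPM. Inputs and pull-downs of these 3 genes did not overlap. The mRNA of mt-Cytb, the cytochrome of complex III, measured 181, 118 and 130 RPM against 81.6, 72.1 and 56.7 RPM, and that of mt-Nd5, a subunit of complex I, 112, 78.7 and 87.4 RPM against 65.2, 51 and 39.3 RPM. Of the other 7, mt-Atp6, mt-Atp8, mt-Co2, mt-Nd1 and mt-Nd4 missed the limit in pair 1 only, at -0.35 to -0.57, while mt-Nd2 had 0.03, -0.72 and -0.14. The mt-Nd6 feature, the only one of these genes encoded on the light strand, had 1.01, 0.04 and 0.12, with 11.4, 9.22 and 10.9 RPM in the inputs and 12.5, 19.5 and 11.2 RPM in the pull-downs.

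The other introns held features with many reads. Intron 2 of Zfp949, a zinc-finger gene (chr9:88548020-88571086), measured 408, 277 and 269 RPM in the inputs and 68.1, 84.2 and 108 RPM in the pull-downs, and a second intron name of the gene held nearly the same reads. The introns of Gm44511, a predicted gene with 3 near-identical members, measured 251, 568 and 286 RPM against 77.2, 111 and 132 RPM. Their inputs and pull-downs did not overlap, although crosslinked input 1 of Gm44511 stood well above the other inputs. Rcc1, the exchange factor for Ran, had 69.3, 94.1 and 101 RPM against 27.1, 20.2 and 32.5 RPM in intron 2 and 133, 179 and 198 RPM against 86, 100 and 118 RPM in intron 1. Snora73b and Snora73a lay 6.57 and 7.03 kb outside the RefSeq span of Rcc1. Intron 3 of Rps6ka2, a ribosomal S6 kinase, had 9.76, 19.7 and 32.5 RPM against 3.42, 6.42 and 6.32 RPM. Among the other exons, exon 1 of Rplp1, a protein of the ribosomal stalk, had 25.5, 19.8 and 16.8 RPM against 5.64, 5.52 and 9.26 RPM.

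At the limit of the choice, the members nearest to it were exon 18 of Lmbrd2, a membrane protein (-0.75, -0.6008 and -1.24), exon 10 of Sept11, a septin (-0.93, -0.6009 and -0.74), and exon 8 of Qk, an RNA-binding protein (-0.6009, -0.66 and -1.52). Just outside were exon 4 of Pabpc1 with a highest ratio of -0.5998, exon 6 of Eef2, the translation elongation factor, with -0.5995, and exon 13 of Hhip, a hedgehog-binding protein, with -0.5991.

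The crosslinked pull-downs were compared with the crosslinked inputs by the quasi-likelihood test of edgeR over 39872 features of all classes. At a Benjamini-Hochberg adjusted p under 0.05, 187 of 260 members were called lower and 0 higher, with 3.47% of all tested features called lower and 6.41% higher. The rule used this contrast, so the count supports nothing. For Tmem38b exon 6 the edgeR adjusted p was 0.000376, and for Ddx3x exon 17, whose crosslinked inputs and pull-downs were apart, it was 0.0606. With TMM factors, which set the typical feature to a ratio near 0, 109 members were called lower and 0 higher against 1.59% and 6.87% of features, and 33 of the 260 had ratios of -0.6 or less in all 3 pairs.

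Crosslinking itself was then compared within inputs and within pull-downs. The rule used the same libraries, and its minimum level was set on the crosslinked ones only, which admits features that are high there, so calls of higher values with crosslinking are partly built in. Each non-crosslinked group had 1 library, whose spread is assumed to be that of the others. In inputs, the median of all features was 0.83 higher on the log2 scale with crosslinking and that of the members 0.23 higher. With edgeR, 10 members were called lower and 26 higher, when 0.218% of all features were called lower and 35.7% higher. In pull-downs the medians were 1.45 for all features and 0.70 for members, with 10 members called lower (1.15% of all features) and 95 higher (66.2%). These directions hang on the scaling: with TMM factors, the median of all features was 0.01 in inputs and 0.06 in pull-downs and that of the members -0.60 and -0.70, with 2 lower and 0 higher in inputs (0.0251% and 0.0125% of all features) and 57 lower and 0 higher in pull-downs (11.4% and 0.426%). The rule required a low non-crosslinked ratio, which favours a high non-crosslinked input, so the place of the members' median in inputs is also partly built in. It required low crosslinked ratios too, met in both pairs by 1.6% of distinct exons and introns, against 31.6% for the non-crosslinked pair. Low crosslinked ratios favour low crosslinked pull-downs, so the members' place in pull-downs is partly built in as well, with either scaling. These limits hold also for the calls by kind and by feature below.

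By kind, and without TMM factors, the host-gene group of 53 had 7 members called lower and 5 higher in crosslinked inputs, and 7 lower and 11 higher in crosslinked pull-downs. The last-exon group of 153 had 0 lower and 4 higher in inputs, and 1 lower and 61 higher in pull-downs. The 6 mitochondrial mRNAs had 1 lower and 0 higher in inputs, and 0 lower and 1 higher in pull-downs. Over all features, 0.218% were lower and 35.7% higher in inputs and 1.15% and 66.2% in pull-downs. With TMM factors none of these 3 groups had a member called higher in edgeR, and those called lower in inputs and pull-downs were 1 and 27 in the host-gene group, 0 and 18 in the last-exon group and 0 and 5 among the mitochondrial mRNAs, against 0.0251% and 11.4% of all features.

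Named by rule, the members with the lowest values in both comparisons were introns of Ranbp1 and Cd44, a hyaluronan receptor, and exon 3 of Tpt1, a translationally controlled protein that hosts Snora31. RefSeq places an snRNA gene, Gm23731, inside the span of Cd44, and whether its reads were counted in intron 10 was not tested. The introns of Cd44 that were not members, summed, went from 0.0819, 0.184 and 0.0886 RPM in the inputs, near or under the 3-read floors, to 1.58, 2.01 and 2.09 RPM in the pull-downs. Intron 10 of Cd44 measured 5.84 RPM in the non-crosslinked input against 2.42 and 2.16 RPM in the crosslinked ones, a log2 ratio of -1.35 ± 0.18 (SE; edgeR adjusted p = 0.033), with 3.16 RPM against 0.714 and 0.908 RPM in the corresponding pull-downs, a log2 ratio of -1.97 ± 0.25 (edgeR adjusted p = 0.00537). Tpt1 exon 3 measured 7.61 RPM against 3.52 and 2.99 RPM in inputs, a log2 ratio of -1.22 ± 0.18 (edgeR adjusted p = 0.033), and 3.78 RPM against 1.42 and 1.53 RPM in pull-downs. With TMM factors the log2 ratios were -2.18 in inputs and -3.37 in pull-downs for Cd44 and -2.05 and -2.77 for Tpt1, with an edgeR adjusted p of 0.0488 in inputs and 0.0109 in pull-downs for each. The input calls of both were lost with DESeq2 (log2 ratios of -2.17 for Cd44 and -2.04 for Tpt1, adjusted p = 0.538 for each) and with a minimum of 0.5 RPM (-1.35 and -1.22, edgeR adjusted p = 0.0517 for each). Ranbp1 intron 5 had log2 ratios of -1.38 ± 0.35 in inputs and -1.44 ± 0.40 in pull-downs (edgeR adjusted p = 0.0352 and 0.02), and with TMM factors -2.21 and -2.83 (adjusted p = 0.0991 and 0.0154). Its input call was also lost with DESeq2 (-2.19, adjusted p = 0.124), with a minimum of 0.5 RPM (-1.38, adjusted p = 0.053) and without crosslinked input 1 (-1.39, adjusted p = 0.0529). Its pull-down ratio was -0.98 without crosslinked pull-down 1 and -2.11 without crosslinked pull-down 2 (edgeR adjusted p = 0.0216 and 0.00529).

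At the other end, crosslinked inputs were higher than the non-crosslinked one for intron 8 of Adam12, a metalloprotease (1.06 against 3.61 and 2.33 RPM), exon 1 of Ep400, and exon 9 of Ylpm1, a nuclear protein (1.84 against 5.85 and 4.07 RPM). Their log2 ratios of 1.48, 1.47 and 1.43 were called by edgeR and became 0.65, 0.65 and 0.60 with TMM factors, where none was called. With a minimum of 0.5 RPM the ratios were unchanged but none was called (edgeR adjusted p = 0.061, 0.0571 and 0.0517), and with DESeq2 they were 0.67, 0.66 and 0.61 (adjusted p = 1 for each). Without crosslinked input 1 the Adam12 ratio was 1.15 (edgeR adjusted p = 0.0532). Crosslinked pull-downs were higher for exon 1 of Ankrd10, which hosts Mir7238 (0.0759 against 0.703 and 0.632 RPM), intron 2 of Minpp1, an inositol polyphosphate phosphatase (0.0759 against 0.566 and 0.569 RPM), and intron 5 of Pip4p2, a lipid phosphatase (1.31 against 6.92 and 6.66 RPM). The non-crosslinked value of Ankrd10 and of Minpp1 was 1 read, so these ratios rest on almost no reads. For Pip4p2 the log2 ratio was 2.38 ± 0.26 (edgeR adjusted p = 0.00537) and 0.98 with TMM factors (adjusted p = 0.0507) and 0.92 with DESeq2 (adjusted p = 0.974).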

How the data were processed

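Per the submitters' processing notes, bcl2fastq 2.19, STAR 2.5.2b, bedtools 2.29.0 and the mm10 build were used; the counting rule, strand and removal of duplicates are not given in the sources used here, so antisense and overlapping genes cannot be told apart. The authors deposited, per library, expected counts of reads and RPM, these counts scaled to the library's total. Many counts were fractions, while each annotation class (exon, intron, snoRNA and others) summed to a whole number within 0.01 reads in all 6 libraries. The authors' deposited table of fold enrichment ratios was not used. Gene and small RNA positions and sequences came from RefSeq (GRCm38.p6), matched by symbol.

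The ratios used RPM with a pseudocount of 1, which understates differences of low features. Counts were rounded and tested with edgeR 4.0.16 (R 4.3.3), on the 39872 features whose 4 crosslinked libraries averaged 1 RPM or more, library sizes being annotated reads (6.99% to 14.4% were unannotated). Pull-downs and inputs were fitted over 4 libraries, the effect of crosslinking over 6, and the code was tested on simulated data. Floors of 3 reads cover counting error only.

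Features were named by rule: the 10 exons and 10 introns with the lowest mean ratio, the 10 with the highest input, 4 per gene list, 3 on each side of the limit, and up to 3 called per direction for crosslinking. Others were chosen after their values were seen. Members and lists were chosen with earlier results of these data known. The alternatives were other pseudocounts, filters, limits and scalings, DESeq2 1.42.0, a replicate block, all 6 libraries in one fit and each of the 4 crosslinked libraries left out. The non-crosslinked libraries, 1 per group, could not be left out of the crosslinking comparisons.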

Additional observations from a re-analysis of the deposited data

How the results depend on the processing

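The number of members moved with the pseudocount (557 at 0.5 and 1149 at 0.1 RPM), with TMM factors (33), with centring on the median of all features (54) and with a limit of -1 (28). It was 274 with a minimum of 0.5 RPM or none, 223 at 2 RPM, 349 with identical features counted apart and, chosen after seeing the data, 341 without the non-crosslinked pair. With a replicate left out it ran from 655 to 820. The share of last exons moved to 70% with TMM factors, to 76.7% with centring and to 70% with the limit of -1, and with a replicate left out ran from 83.8% to 89.7%. The share of genes with a snoRNA or scaRNA in their span moved to 13.4% and 9.24% with pseudocounts of 0.5 and 0.1 RPM, 70.8% with TMM factors, 50% with centring and 73.7% with the limit of -1, and with a replicate left out ran from 10.4% to 10.9%.

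In what follows, the share of all features called the same way stands in brackets. For crosslinked pull-downs against inputs, members called lower were 187 (3.47%), then 109 with TMM factors (1.59%), 33 with DESeq2 (0.597%) and 0 with no filter, where edgeR called 0 of 942601 features and 255 members had an unadjusted p under 0.05. With a library left out the count ran from 92 (without crosslinked pull-down 2; 2.11%) to 200 (5.47%), and was 115 without crosslinked input 1 (2.36%). With the replicate block it was 231 (4.16%). The 2 numbers are not shown to pair the libraries: the differences between inputs 1 and 2 and between pull-downs 1 and 2 correlated at 0.111 over features.

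For crosslinking in inputs, members called lower were 10 (0.218%), then 2 with TMM factors (0.0251%), 0 with DESeq2 (0.00752%; 33 members unadjusted), 0 with a minimum of 0.5 RPM in edgeR (0%; 20 unadjusted) and 6 at 2 RPM (0.296%), and 7 to 10 with a library left out (0.293% and 0.193%). Members called higher were 26 (35.7%), then 0 with TMM factors in edgeR (0.0125%; 0 unadjusted), 0 with DESeq2 (0.0677%; 0 unadjusted) and 0 with a minimum of 0.5 RPM (0%; 47 unadjusted), and 6 without crosslinked input 1 (9.96%) to 26 (26.3%). In pull-downs, members called lower were 10 (1.15%), then 57 with TMM factors (11.4%) and 19 with DESeq2 (1.69%), and 6 without crosslinked pull-down 1 (1.56%) to 15 (1.24%). Members called higher were 95 (66.2%), then 0 with TMM factors in edgeR (0.426%; 1 unadjusted) and 0 with DESeq2 (0.13%; 0 unadjusted), and 67 to 96 with a library left out (58.6% and 64.4%). Unadjusted counts are at a p under 0.05. The cause of these changes was not tested, beyond the larger number of features tested at lower minimums. The 2 libraries per crosslinked group and 1 per non-crosslinked group limit all of these tests.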
